A study of Mus musculus with 32 samples.

Results

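The genes described here encode chromatin remodelers and the methyltransferases of the KMT2 and SETD families, measured in mouse RNA pulled down with an antibody to N6-methyladenosine (m6A), an RNA base that carries a methyl group. They were taken by symbol: Kmt2a to Kmt2e, every Setd gene with a number, Chd1 to Chd9, the Arid genes and symbols beginning with Smarc. The choice was made with earlier results of these data known. The table held 45 such genes among 27179. Of these, 44 were among the 14864 genes tested, which had a log2 value above 0 in at least 2 of the 8 libraries. The exception was the pseudogene Smarca5-ps.

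The tissues were mouse brain, heart, kidney and liver, each either fixed in 10% formalin and embedded in paraffin (FFPE) as in pathology archives, or flash frozen. Each of these 8 combinations was 1 column of the table, and each column is called a library below. The labels list 2 runs for each m6A group, but the sources used here do not say if a column holds one of them or both. They give no strain, age or number of animals. All groups went through the same shearing by ultrasound (20 min), pulldown and total RNA library kit with removal of ribosomal RNA, and FFPE tissue was first freed of paraffin. Input RNA was not analysed here, so a difference in the pulldown can be one of RNA abundance or of methylation, and the data do not tell them apart. In bulk tissue, fewer cells of a type and less RNA per cell cannot be told apart either.

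Chromatin remodelers use the energy of ATP to slide, evict or space nucleosomes. Their ATPases fall into families that include SWI/SNF (BAF in mammals), ISWI and CHD, and most work with accessory subunits, among them the ARID proteins of BAF. The KMT2 and SETD1 enzymes methylate lysine 4 of histone H3 at promoters and enhancers in complexes called COMPASS. Subunit exchange in BAF is known from neural development, and several of these genes, such as Arid1b, Chd7, Chd8, Kmt2a and Kmt2d, are known from human developmental syndromes when mutated.

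Levels are log2 normalised CPM as deposited (counts scaled to a common library size), with 0.5 added to each count before scaling, and differences are on the same log2 scale. This scale understates the change of genes with few counts. The 8 libraries held 9603050 (FFPE brain) to 21523379 (frozen brain) gene counts. Ribosomal genes took 50.4% (FFPE brain) to 79.7% (frozen heart) of them, which left 3050241 (FFPE liver) to 8004550 (frozen brain) counts for all other genes. A count of 3 corresponded to a log2 level of -3.29 in frozen brain and -0.86 in FFPE liver. Each organ's own cell markers were all called higher in that organ (12 neuron, 8 glia, 10 cardiomyocyte, 10 nephron and 10 hepatocyte genes), though several were above the filter in that organ alone. Outside brain, frozen heart had the highest sum of the neuron markers. All 12 neuron markers had more than 3 counts there and summed to 67.6 CPM, against 9 of 12 and 33.7 in FFPE heart, 1220 in FFPE brain and 1580 in frozen brain. In kidney and liver the neuron markers summed to 4.74 to 7.81 CPM. Slc17a7 (3.61 and 2.15) and Stmn2 (0.59 and -0.05) went the other way, with higher levels in FFPE than in frozen heart. The 8 glia markers summed to 71.6 CPM in frozen heart and 13.4 in FFPE heart, but also to 78.8 in FFPE liver and 96.5 in frozen liver. All 8 had more than 3 counts in frozen heart, against 4 and 5 in FFPE and frozen liver. The source of the neuron and glia transcripts in heart was not tested. Xist was at log2 7.56 to 9.47 in the 4 FFPE libraries and -2.64 to 0.28 in the 4 frozen ones, and 4 Y-linked genes summed to 23.0 to 25.6 CPM in FFPE and 39.8 to 61.6 in frozen tissue. Markers of female and male tissue thus moved with preservation.

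Most of these genes varied little between organs and preservations. The range of a gene over the 8 libraries had a median of 1.14 on the log2 scale over the 44 genes, beside 2.77 over all tested genes. These 2 medians were not taken at like levels, and counting error widens the range of genes with few counts. The median level of all tested genes was 1.94 (frozen liver) to 2.37 (frozen brain) in the 8 libraries. Setd2, which trimethylates lysine 36 of histone H3, had the smallest range, 0.24, with levels of 5.50 (frozen kidney) to 5.74 (FFPE liver). Arid2 and Kmt2e had ranges of 0.40, Smarcc1 0.48, Arid1b 0.51 and Chd2 0.52. At the other end stood Chd5 with 7.46, Smarca1 with 6.23, Smarcd3 with 4.97 and Setd7 with 4.17. Their mean levels were 1.60, 0.44, 1.67 and 4.13, beside 5.63 for Setd2. An organ was compared with the mean of the other 3 organs in a limma fit with organ and preservation as terms, so that the FFPE and the frozen library were its 2 observations. A gene was called at a Benjamini-Hochberg adjusted p below 0.05 over all tested genes. By that rule 26 of the 44 genes (59.1%) were called in at least 1 organ comparison, beside 75.6% of all tested genes. Setd7 was called in all 4 comparisons, 6 genes in 3, 11 in 2, 8 in 1 and 18 in none. These p-values reflect how alike the organ differences were in FFPE and frozen tissue, after the mean shift between the 2 preservations was taken out. Each gene's variance was drawn toward that of genes of like level, with 5.54 prior degrees of freedom beside 3 residual ones. Each group had 1 library, so the spread between animals of a group was not measured. Where another scaling of the libraries, or the loss of 1 library, ended or turned a call of a member, its value is given beside it. Calls of genes outside the members were not checked in this way.

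Brain had the most calls, with 17 of 44 members higher and 2 lower, beside 30.2% and 26.4% of all tested genes. Liver had 4 higher and 9 lower, beside 20.1% and 27.2%. Heart had 5 higher and 7 lower, beside 15.9% and 18.1%. Kidney had 2 higher and 6 lower, beside 16.1% and 13.5%. In each organ the share of members called was below that of all tested genes in both directions, except for the higher calls in brain (38.6% of members) and the lower calls in kidney (13.6%), the last of which were near the background. The counts of the gene groups below can be read against the same shares.

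**Figure D1:**
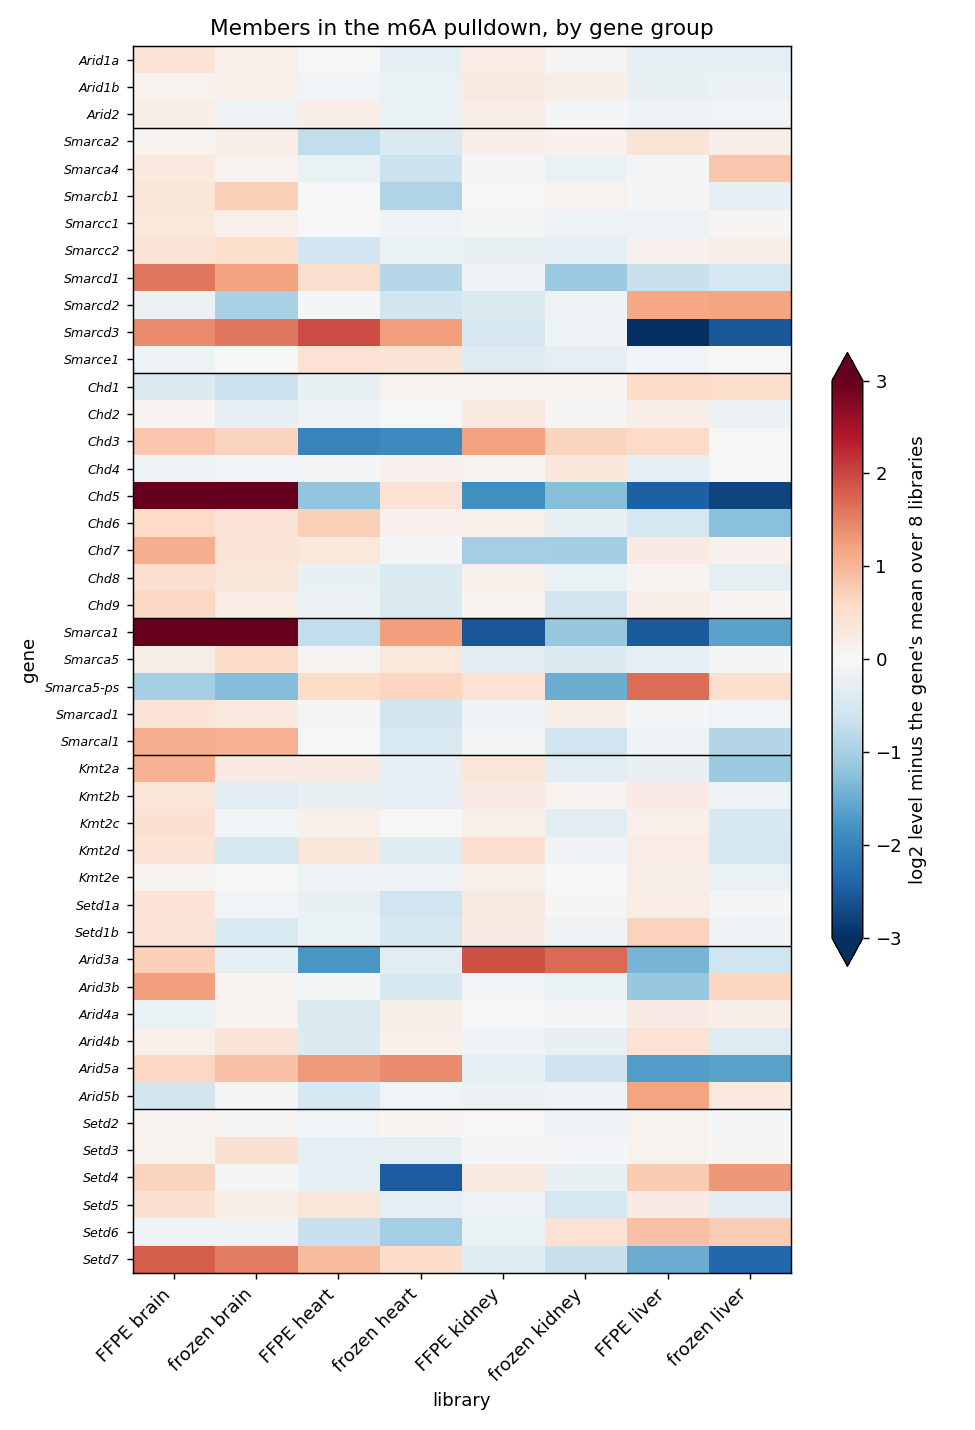
Log2 level of each of the 45 genes (rows, by gene group) in the 8 libraries (columns), as the difference from that gene's mean over the libraries. Red is above and blue below the mean, and the colour scale ends at -3 and 3. Chd5 and Smarca1 stand out in both brain libraries, Chd3 is low in both heart libraries, and most other rows are pale.

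The 7 KMT2 and SETD1 genes gave 3 calls in the 4 organ comparisons, and Kmt2a was the one that differed most between organs. It encodes MLL1, a histone H3 lysine 4 methyltransferase best known for regulating Hox genes. Its level was 7.29 and 6.51 in FFPE and frozen brain, against those in heart (6.51 and 6.01), kidney (6.63 and 5.92) and liver (6.04 and 5.15). Among the FFPE libraries, and among the frozen ones, brain was the highest and liver the lowest. The difference was 0.85 ± 0.13 (SE) for brain, or 1.81-fold, with an adjusted p of 0.000691, and -0.88 ± 0.13 for liver, with an adjusted p of 0.000727.

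The other members of that group moved less. Kmt2d, which like Kmt2c acts mainly at enhancers, was at 7.33 and 6.44 in FFPE and frozen brain, with like values in heart (7.27 and 6.56), kidney (7.41 and 6.81) and liver (7.15 and 6.41). Every FFPE library lay above every frozen one, and the organs were interleaved. Kmt2b, the closest relative of Kmt2a, was at 4.82 and 4.13 in FFPE and frozen brain and between 4.21 and 4.71 in the other 6 libraries. Setd1a, a catalytic subunit of the SET1 complex, was lower in heart, at 3.75 and 3.37 in FFPE and frozen tissue, against 3.88 to 4.38 elsewhere. Its difference was -0.54 ± 0.15, with an adjusted p of 0.0258. That call ended without either heart library, either kidney library or FFPE brain (adjusted p 0.0591 to 0.139) and with quantile normalization (0.158) or libraries centred on their medians (0.105). Kmt2b, Kmt2c, Kmt2d, Kmt2e, which has no known methyltransferase activity, and Setd1b were called in no organ.

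Of the 6 other SETD genes, 2 were called higher in brain, and Setd7 had the widest range. It encodes a lysine monomethyltransferase that acts on histone H3 and on other proteins. Its level was 5.95 and 5.67 in FFPE and frozen brain, and then stepped down in heart (5.09 and 4.68), kidney (3.78 and 3.47) and liver (2.64 and 1.78). The libraries of any 2 organs did not overlap, in the order brain, heart, kidney, liver. Against the mean of the other organs, Setd7 was 2.24 ± 0.17 higher in brain (4.71-fold, adjusted p 1.68e-05) and 1.0 ± 0.17 higher in heart (adjusted p 0.00239). It was -0.67 ± 0.17 in kidney (adjusted p 0.0183) and -2.56 ± 0.17 in liver (0.169-fold, adjusted p 8.97e-06). The brain and liver calls held under every setting tried. The heart call ended with libraries scaled by their total counts (0.46, adjusted p 0.414), and the kidney call ended with either kidney library left out (adjusted p 0.249 without FFPE kidney and 0.104 without frozen kidney). Scaling by total counts (-0.15, adjusted p 0.818) or by counts outside the ribosomal genes (-0.23, adjusted p 0.301) ended the kidney call too.

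The remaining SETD genes were lower in level or flatter. Setd5, whose mutation in people causes intellectual disability, was 0.45 ± 0.14 higher in brain (adjusted p 0.0235) and -0.45 ± 0.14 in kidney (adjusted p 0.0431). The brain call ended without FFPE brain (adjusted p 0.0608), frozen brain (0.223) or FFPE kidney (0.0701), and the kidney call without any 1 of 6 libraries (0.0536 to 0.378). Setd5 in brain was also not called with quantile normalization (0.29, adjusted p 0.0595) or median centring (0.19, adjusted p 0.247). In kidney Setd5 was -0.30 with quantile normalization (adjusted p 0.0757), -0.01 with scaling outside the ribosomal genes (adjusted p 0.966) and 0.08, the other direction, with scaling by total counts. Setd6, a methyltransferase of the NF-kappaB subunit RelA, had 1.08 in both brain libraries, 0.50 and 0.16 in FFPE and frozen heart, 0.98 and 1.60 in FFPE and frozen kidney, and 2.06 and 1.94 in FFPE and frozen liver. Liver was above and heart below all other libraries, with differences of 1.10 ± 0.36 (adjusted p 0.0346) and -1.13 ± 0.36 (adjusted p 0.0416). The liver call ended without any 1 library other than FFPE heart (adjusted p 0.0541 to 0.178), and the heart call without any 1 other than frozen liver (0.0597 to 0.24). With scaling by total counts Setd6 in liver turned to -0.10, and outside the ribosomal genes it was 0.32 (adjusted p 0.471). The heart call ended with quantile normalization (adjusted p 0.0562) or median centring (0.0739). Setd4 was -1.84 ± 0.56 in heart (adjusted p 0.0328), a value set by frozen heart at -1.89 (3 counts) beside 0.32 (14 counts) in FFPE heart. Without frozen heart it was -0.85 with an adjusted p of 0.334, and with any 1 brain or kidney library left out the adjusted p was 0.0664 to 0.077 (0.0505 with median centring). Setd3, which methylates a histidine of actin, was at 4.40 to 5.15 in all libraries and, like Setd2, was called in no organ.

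The CHD family held the member with the widest range, Chd5, though its median range (1.20) was close to that of all members. For brain 6 of 9 were called higher and 1 lower, beside 30.2% and 26.4% of all tested genes. In each of the other organs 1 was higher and 2 were lower. Chd3, Chd4 and Chd5 are alternative ATPases of the NuRD deacetylase complex, and Chd5 is known as its neuronal form. Chd4 stayed between 6.08 and 6.72 in the 8 libraries and was called in no organ. Chd5, on chromosome 4 from 152338646 to 152390194 (GRCm38.p6), had 1691 and 2141 counts in FFPE and frozen brain, against those in heart (15 and 52), kidney (16 and 27) and liver (3 and 4). In levels these were 6.30 and 5.97 in brain, then 0.41 and 2.02 in heart, -0.24 and 0.33 in kidney, with -0.86 and -1.16 in liver. Both brain libraries lay far above the other 6. Of those, frozen heart was the highest, and it also had the highest sum of neuron markers. The brain difference was 6.05 ± 0.43 (66.2-fold, adjusted p 1.13e-05), and it was 6.61 with both heart libraries left out (adjusted p 5.65e-06).

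The 300 bases around the annotated starts of Chd5 and Chd4 are shown to set the brain form beside the form found in all 4 organs. They run from 250 bases before to 50 bases after the start, 5′ to 3′ on the gene's strand, with CG dinucleotides in capitals, and come from RefSeq (GRCm38.p6). Both genes lie on the plus strand.
Chd5, chr4:152338401-152338700: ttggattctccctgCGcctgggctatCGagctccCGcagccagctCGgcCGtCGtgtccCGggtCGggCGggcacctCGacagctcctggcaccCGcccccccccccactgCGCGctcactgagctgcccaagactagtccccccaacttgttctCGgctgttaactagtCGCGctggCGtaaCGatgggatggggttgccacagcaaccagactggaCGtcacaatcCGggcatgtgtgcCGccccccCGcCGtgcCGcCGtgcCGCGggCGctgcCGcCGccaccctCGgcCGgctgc
Chd4, chr6:125095731-125096030: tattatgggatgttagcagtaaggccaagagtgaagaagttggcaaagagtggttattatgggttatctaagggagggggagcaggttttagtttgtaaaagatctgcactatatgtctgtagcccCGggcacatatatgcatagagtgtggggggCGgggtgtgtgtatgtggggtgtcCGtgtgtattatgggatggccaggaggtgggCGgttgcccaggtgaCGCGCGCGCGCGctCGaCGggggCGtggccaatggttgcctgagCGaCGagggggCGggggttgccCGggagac
The Chd5 window held 32 CG dinucleotides and the Chd4 window 17. Each gene has another annotated start, with 33 in the window of Chd5 and 29 in that of Chd4 (chr6:125095913-125096212), so the gap between the genes depends on the start taken. Both held GGGCGG, the GC box, on 1 strand or the other. Neither held TATAAA or TTCAGCACC, the left part of the element bound by the repressor REST, on either strand.

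Chd3 was the member lowest in heart relative to the other organs. Its level was 4.02 and 4.11 in FFPE and frozen heart, against those in brain (6.85 and 6.69), kidney (7.23 and 6.70) and liver (6.60 and 6.04). The heart difference was -2.62 ± 0.16 (0.162-fold, adjusted p 1.06e-05), and it was the only heart call of a member that held under every setting tried. Chd3 was also called higher in brain (0.99 ± 0.16) and in kidney (1.25 ± 0.16, adjusted p 0.000691). Both of those calls ended when heart was left out, at 0.13 (adjusted p 0.502) for brain and 0.42 (adjusted p 0.0719) for kidney.

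Chd7, mutated in CHARGE syndrome, differed in 2 directions. It was at 5.71 and 5.00 in FFPE and frozen brain, beside those in heart (4.93 and 4.56), kidney (3.61 and 3.58) and liver (4.86 and 4.75). Brain was above and kidney below all other libraries. The brain difference was 0.97 ± 0.17 (adjusted p 0.00132) and the kidney difference -1.37 ± 0.17 (0.386-fold, adjusted p 0.000583). The kidney difference was -0.85 with scaling by total counts, which ended that call (adjusted p 0.122).

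Chd6 was -1.15 ± 0.15 in liver (0.449-fold, adjusted p 0.000282), with 4.90 and 4.15 in FFPE and frozen liver against 5.18 to 6.10 in the other libraries. It was 0.64 ± 0.15 higher in brain (adjusted p 0.00538) and 0.55 ± 0.15 higher in heart (adjusted p 0.0201). The liver call held under every setting, while the brain call ended without frozen brain (adjusted p 0.0977) and the heart call without either heart library (adjusted p 0.182 without FFPE heart and 0.0746 without frozen heart) or without FFPE kidney (0.0626). With scaling by total counts Chd6 in heart was 0.01 (adjusted p 0.986), and outside the ribosomal genes 0.40 (adjusted p 0.0591). Chd8, a gene strongly tied to autism in people, was at 5.70 and 5.57 in FFPE and frozen brain, above 4.79 to 5.35 in the others. Its brain difference was 0.58 ± 0.13 (adjusted p 0.00503, and 0.0699 without frozen brain). In heart it was -0.43 ± 0.13 (adjusted p 0.0345), a call that ended without any 1 of 5 libraries (0.0702 to 0.234) and with quantile normalization (0.14), median centring (0.126) or scaling by total counts (-0.97, adjusted p 0.0513). Chd9 was at 6.06 and 5.67 in FFPE and frozen brain and 4.90 to 5.65 elsewhere, a difference of 0.56 ± 0.14 (adjusted p 0.0088), which ended without FFPE brain (0.0859) or frozen brain (0.0571) and with median centring (0.30, adjusted p 0.106).

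Chd1, a remodeler linked to transcription elongation, ran the other way. Its level was 4.00 and 3.78 in FFPE and frozen brain and 4.98 and 4.97 in liver, with 4.22 to 4.53 in heart and kidney. Brain was below and liver above all other libraries, at -0.72 ± 0.16 (adjusted p 0.00406) and 0.73 ± 0.16 (adjusted p 0.00508). The brain call ended without frozen brain (adjusted p 0.0712). Both directions turned with scaling by total counts, to 0.50 in brain and -0.48 in liver. Outside the ribosomal genes Chd1 was -0.24 in brain (adjusted p 0.272) and -0.05 in liver (adjusted p 0.817). Chd2 had levels of 5.29 to 5.80 and was called in no organ.

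**Figure D2:**
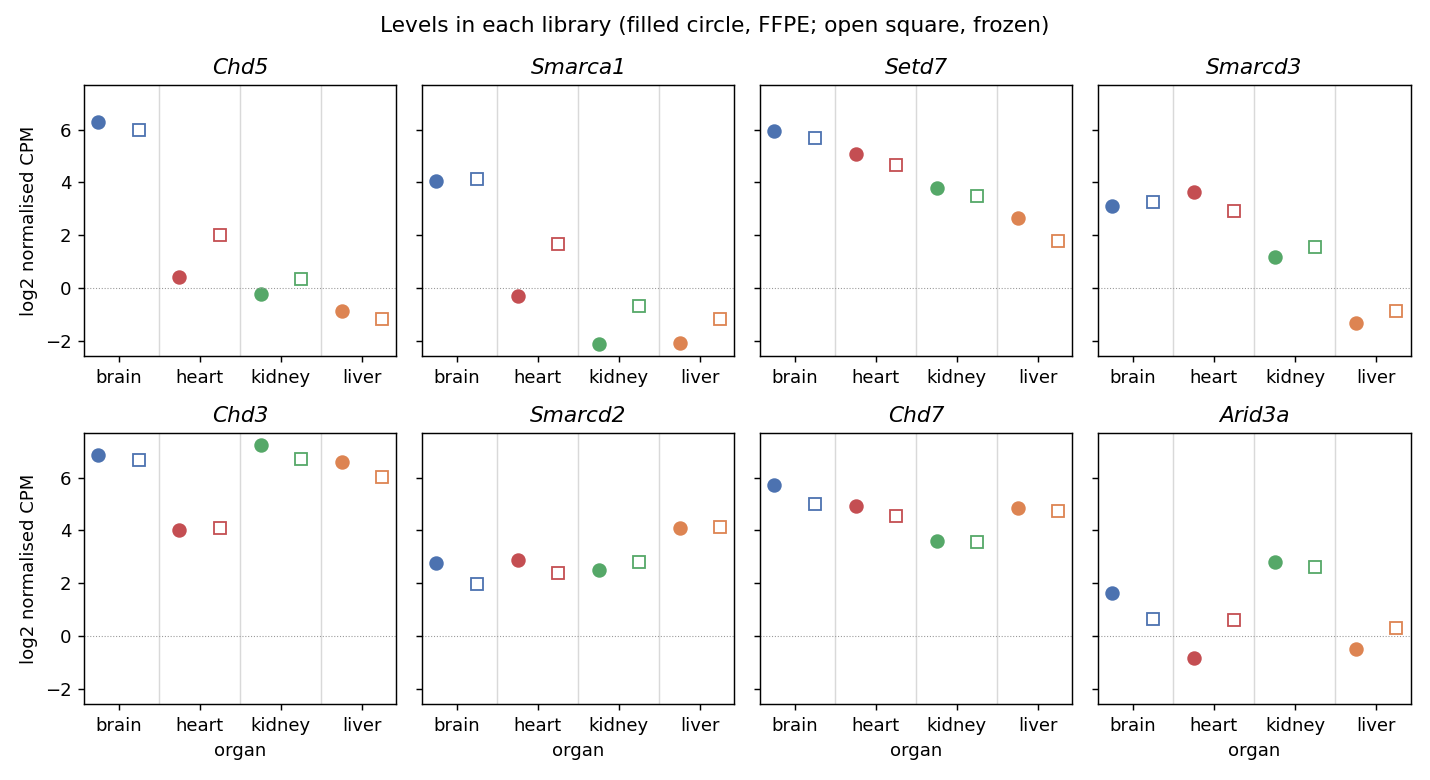
Log2 level (y axis) of 8 members in each library, by organ (x axis). Filled circles are FFPE and open squares frozen tissue, and each point is 1 library. Chd5 and Smarca1 are highest in brain, Setd7 steps down through brain, heart, kidney and liver, and Chd3 is low in heart.

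Among 9 genes of BAF ATPases and core subunits, 3 were called higher and 1 lower in brain, 2 each way in heart, 1 each way in liver and 0 in kidney. The largest contrasts were in Smarcd1, Smarcd2 and Smarcd3, which encode the alternative subunits BAF60a, BAF60b and BAF60c. Smarcd3, whose product is known from heart development, was at 3.62 and 2.92 in FFPE and frozen heart and 3.10 and 3.25 in brain, against those in kidney (1.16 and 1.54) and liver (-1.34 and -0.87). The liver values rested on 2 and 5 counts in FFPE and frozen tissue. Heart and brain overlapped, and both lay above kidney and liver. The differences were 2.14 ± 0.34 in heart (4.39-fold, adjusted p 0.00154), 2.0 ± 0.34 in brain (4.01-fold, adjusted p 0.00105) and -3.70 ± 0.34 in liver (0.0767-fold, adjusted p 4.36e-05). The heart call ended without FFPE heart (1.62, adjusted p 0.0531), and the brain and liver calls held under every setting.

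Smarcd1 was highest in brain, at 4.09 and 3.70 in FFPE and frozen tissue, against those in heart (2.99 and 1.64), kidney (2.37 and 1.39) and liver (1.83 and 1.98). The difference was 1.86 ± 0.31 (3.63-fold, adjusted p 0.00103). Smarcd2 was highest in liver, at 4.10 and 4.14 in FFPE and frozen tissue, against those in brain (2.78 and 1.97), heart (2.89 and 2.38) and kidney (2.52 and 2.79). The liver difference was 1.56 ± 0.25 (2.95-fold, adjusted p 0.00111), and it was 0.36 with scaling by total counts (adjusted p 0.502). Smarcd2 was also -0.76 ± 0.25 in brain (adjusted p 0.0304). That call ended without frozen brain (0.369), FFPE heart (0.0604), frozen kidney (0.0806) or frozen liver (0.0508), and it turned to 0.46 with scaling by total counts and was -0.27 with scaling outside the ribosomal genes (adjusted p 0.442). Each of the 3 genes was thus highest in other libraries: Smarcd1 in brain, Smarcd2 in liver, and Smarcd3 in heart and brain.

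The ATPases of BAF differed less. Smarca2 (BRM) was lower in heart, at 5.32 and 5.63 in FFPE and frozen tissue, against 6.16 to 6.45 in the other 6 libraries. The difference was -0.79 ± 0.14 (0.579-fold, adjusted p 0.00312, and 0.0678 without FFPE heart). Smarca4 (BRG1) was called in no organ. It was between 4.57 and 5.50 in 7 libraries and at 6.02 in frozen liver, beside 5.15 in FFPE liver. Smarcc2 (BAF170), a scaffold subunit, was at 5.96 and 6.08 in FFPE and frozen brain and 4.99 to 5.76 elsewhere. Its differences were 0.61 ± 0.14 in brain (adjusted p 0.00498, and 0.0511 without FFPE brain) and -0.52 ± 0.14 in heart (adjusted p 0.019, with 0.245 without FFPE heart, 0.0641 without FFPE kidney, 0.0561 with quantile normalization and 0.0696 with median centring). Its paralog Smarcc1 (BAF155) stayed between 3.90 and 4.38. Smarce1 (BAF57) was 0.56 ± 0.18 higher in heart (adjusted p 0.0384), a call that ended without any 1 of the 6 brain, heart and kidney libraries (0.0639 to 0.259). With scaling by total counts Smarce1 in heart was 0.02 (adjusted p 0.973), and outside the ribosomal genes 0.42 (adjusted p 0.125). The core subunit gene Smarcb1 was at 2.69 and 3.03 in FFPE and frozen brain and 1.41 to 2.42 elsewhere, which missed the threshold (0.72, adjusted p 0.062).

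Of the ISWI ATPases, Smarca1 (SNF2L) had the second widest range of the members, after Chd5. It lies on the X chromosome from 47809370 to 47892613. It had 361 and 593 counts in FFPE and frozen brain, against those in heart (9 and 41), kidney (4 and 13) and liver (1 and 4). In levels these were 4.07 and 4.12 in brain, then -0.29 and 1.68 in heart, -2.12 and -0.70 in kidney, with -2.08 and -1.16 in liver. Smarca1 passed the filter through the brain libraries and frozen heart only. The brain difference was 4.87 ± 0.50 (29.3-fold, adjusted p 7.67e-05), and it was 5.61 without both heart libraries (adjusted p 7.74e-05). Frozen heart was again the highest library outside brain, and the part of its neuron and glia transcripts in that value was not tested.

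Its paralog Smarca5 (SNF2H), the ISWI ATPase needed in most dividing cells, had 4.21 and 4.56 in FFPE and frozen brain, beside those in heart (4.06 and 4.31), kidney (3.65 and 3.56) and liver (3.72 and 3.93). It was 0.52 ± 0.16 higher in brain (adjusted p 0.023) and -0.53 ± 0.16 in kidney (adjusted p 0.0377). The brain call ended without FFPE brain (0.0706), frozen brain (0.21) or frozen kidney (0.0729), and the kidney call without any 1 of the 6 brain, heart and kidney libraries (0.0535 to 0.439). The brain call also ended with quantile normalization (adjusted p 0.113) or median centring (0.177), and Smarca5 in kidney was -0.01 with scaling by total counts (adjusted p 0.994) and -0.09 outside the ribosomal genes (adjusted p 0.674). The pseudogene Smarca5-ps had 2 to 8 counts per library. The sources used here do not say how reads that match both genes were counted, so their split is uncertain.

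The start windows of these paralogs are printed in the same way and from the same source, to set the brain gene beside the gene present in every organ. Both lie on the minus strand.
Smarca1, chrX:47892564-47892863: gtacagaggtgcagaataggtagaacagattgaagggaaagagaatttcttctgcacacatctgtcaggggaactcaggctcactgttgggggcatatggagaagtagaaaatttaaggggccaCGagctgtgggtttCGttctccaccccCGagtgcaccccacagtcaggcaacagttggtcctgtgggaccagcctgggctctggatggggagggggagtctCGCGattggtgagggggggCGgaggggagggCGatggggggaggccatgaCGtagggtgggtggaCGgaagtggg
Smarca5, chr8:80739410-80739709: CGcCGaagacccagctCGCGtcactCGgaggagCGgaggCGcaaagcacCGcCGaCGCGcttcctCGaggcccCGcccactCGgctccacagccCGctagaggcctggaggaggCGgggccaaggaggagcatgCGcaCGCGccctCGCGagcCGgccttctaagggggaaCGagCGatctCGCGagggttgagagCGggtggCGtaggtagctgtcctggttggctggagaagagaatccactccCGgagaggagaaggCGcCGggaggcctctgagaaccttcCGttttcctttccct
The Smarca1 window held 9 CG dinucleotides and the Smarca5 window 32. Of the brain genes Chd5 and Smarca1 thus one had a CG-rich and the other a CG-poor window. Both paralogs held GGGCGG and neither held TATAAA or TTCAGCACC. RefSeq start windows were matched for 33 members, with 40 windows in all. Their median was 27.5 CG dinucleotides, beside 19 over 14720 windows of tested genes. GGGCGG stood in 30 of them (75.0%), beside 35.7% of all 32851 windows of that length, which include genes that were not tested. TATAAA stood in 2 (5.0%), beside 13.6%, and TTCAGCACC in 0, beside 0.371%. Unlike the CG medians, these motif shares were not taken over tested genes alone. The members were also long genes: their median span was 69423 bp, beside 24753 bp over 14612 tested genes, and 36 of 44 lay above that median. They were spread over 19 chromosomes.

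Smarcal1, which rewinds DNA at stalled replication forks, was 1.41 ± 0.22 higher in brain (2.66-fold, adjusted p 0.00062). It was at 4.02 and 3.98 in FFPE and frozen brain, against those in heart (2.93 and 2.48), kidney (2.89 and 2.33) and liver (2.81 and 2.05). The brain libraries were more than 1 log2 unit above all others. In liver it was -0.67 ± 0.22 (adjusted p 0.0306), a call that ended without frozen liver (0.21), frozen brain (0.0724), FFPE kidney (0.0835) or frozen kidney (0.0624) and with median centring (0.0657). Smarcad1 was at 3.41 and 3.31 in FFPE and frozen brain and 2.48 to 3.20 elsewhere, with no call.

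The ARID subunits of BAF were nearly level, with 1 of 3 genes called in brain and in liver. Arid1a was at 5.85 and 5.61 in FFPE and frozen brain, beside those in heart (5.45 and 5.18), kidney (5.67 and 5.48) and liver (5.18 and 5.19). Its calls, 0.37 ± 0.13 in brain (adjusted p 0.0366) and -0.36 ± 0.13 in liver (adjusted p 0.0498), both ended with centring on medians (adjusted p 0.499 for brain and 0.286 for liver), and the brain call with quantile normalization (0.104). The brain call also ended without any 1 of 6 libraries (0.0542 to 0.218) and the liver call without any 1 of the 8 (0.0576 to 0.327). Arid1b, at 5.11 to 5.61, and Arid2, the subunit of the PBAF form, at 4.33 to 4.73, were called in no organ.

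The 6 ARID genes outside BAF were more varied, with 1 called higher in each organ and 1 lower in liver. Arid5a, which encodes a protein that binds and stabilises RNA, was at 2.47 and 2.60 in FFPE and frozen heart, beside those in brain (1.81 and 2.06), kidney (0.90 and 0.57) and liver (-0.49 and -0.42). The order of the organs was heart, brain, kidney, liver, with no overlap. Its liver values rested on 4 and 7 counts in FFPE and frozen tissue. Its differences were 1.80 ± 0.34 in heart (adjusted p 0.00426), 1.0 ± 0.34 in brain (adjusted p 0.0344) and -2.19 ± 0.34 in liver (0.219-fold, adjusted p 0.000919). The heart call ended without FFPE heart (0.0539) or frozen heart (0.0513), and the brain call without any 1 of the 6 brain, heart and kidney libraries (0.0619 to 0.246). Scaling by total counts ended the heart call (1.26, adjusted p 0.0973), and quantile normalization (0.62, adjusted p 0.129) or median centring (0.74, adjusted p 0.0905) ended the brain call. Arid3a, a DNA-binding factor known as Bright in B cells, was highest in kidney, at 2.81 and 2.62 in FFPE and frozen tissue. The FFPE and frozen values elsewhere were 1.63 and 0.64 for brain, -0.84 and 0.59 for heart, and -0.49 and 0.32 for liver. The kidney difference was 2.41 ± 0.52 (5.30-fold, adjusted p 0.00857). It was not called without FFPE kidney (adjusted p 0.171) or without frozen kidney (adjusted p 0.0729).

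Arid5b, a partner of the demethylase Phf2, was 0.97 ± 0.25 higher in liver (adjusted p 0.013). Most of this came from FFPE liver, at 5.72 beside 4.83 in frozen liver, with 3.99 to 4.49 in the other libraries, and the difference was 0.37 without it (adjusted p 0.221). With scaling by total counts it turned to -0.23, and outside the ribosomal genes it was 0.20 (adjusted p 0.462). Arid3b, Arid4a and Arid4b were called in no organ. Arid4a and Arid4b, which belong to Sin3 deacetylase complexes, were at 3.81 to 4.50 and 4.19 to 5.05.

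The counts by organ depended on how libraries were scaled and on single libraries. The median brain difference was 0.37 over the members and 0.07 over all tested genes. It was positive in 34 of 44 members, beside 7800 of 14864 tested genes. With scaling by total counts 40 were higher and 0 lower in brain, where the median over all tested genes was 1.29, and with centring on medians 12 were higher and 5 lower. Without frozen brain 10 were called. In 12 members both brain libraries lay above, and in 1 below, the other 6 libraries, beside 26.6% and 15.9% of all tested genes.

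The median liver difference was -0.06 over the members and -0.18 over all tested genes. With scaling by total counts 0 were higher and 34 lower in liver, where the median over all tested genes was -1.38, and with centring on medians 9 were higher and 7 lower. Both liver libraries lay above the other 6 in 6 members and below them in 5, beside 15.0% and 15.2%.

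The median heart difference was -0.19 over the members and -0.15 over all tested genes. Leaving out FFPE heart left 3 calls, frozen heart 6, FFPE kidney 5 and frozen kidney 7, and with centring on medians 5 were higher and 2 lower. Both heart libraries lay above the other 6 in 2 members and below them in 6, beside 11.3% and 9.11%.

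The median kidney difference was -0.06 over the members and 0.00 over all tested genes. Leaving out either kidney library left 2 calls. With scaling by counts outside the ribosomal genes 14 were higher and 3 lower in kidney, where the median over all tested genes was 0.44, and with quantile normalization 9 were higher and 6 lower. Both kidney libraries lay above the other 6 in 2 members and below them in 3, beside 10.1% and 4.55%.

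Chd5 and Smarca1 were also called lower in liver and kidney, against a mean that included brain. They were at -3.47 ± 0.43 and -2.74 ± 0.50 in liver and at -2.07 ± 0.43 and -2.46 ± 0.50 in kidney. The kidney calls ended without FFPE kidney (adjusted p 0.097 for Chd5 and 0.103 for Smarca1) or frozen kidney (0.0621 and 0.0605).

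Related subunits were also compared within a library, as the difference of their log2 levels, which does not depend on how libraries were scaled. Gene length enters each difference, so only its change between libraries can be read. For 7 pairs, the 2 brain libraries were set against the other 6 with an exact two-sided permutation test, whose smallest possible p is 0.0714 in this design, so no pair could pass 0.05. Chd5 minus Chd4 was 0.08 and -0.35 in FFPE and frozen brain, against -7.53 to -4.49 in the other 6 libraries. The shift was 6.21, with p = 0.0714 (exact permutation test, adjusted p 0.25 over the 7 pairs). Kmt2b minus Kmt2a was -2.47 and -2.38 in FFPE and frozen brain, against -2.26 to -0.84 elsewhere. The shift was -0.84, again with p = 0.0714 (exact permutation test, adjusted p 0.25), and liver lay at the other end with -1.33 and -0.84 in FFPE and frozen tissue.

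The other 5 pairs overlapped between brain and the other organs. Chd3 minus Chd4 was -2.34 and -2.40 in FFPE and frozen heart, beside -0.33 to 0.73 in the other 6 libraries. Smarcd3 minus Smarcd1 was 0.63 and 1.28 in FFPE and frozen heart, beside those in brain (-0.99 and -0.45), kidney (-1.21 and 0.14) and liver (-3.17 and -2.84), so the heart and liver libraries stood at opposite ends. Smarca2 minus Smarca4 was 1.30 in FFPE and 0.23 in frozen liver, the highest and the lowest value of that pair. Smarcc2 minus Smarcc1 shifted by 0.30 in brain (exact permutation p = 0.286) and Arid1b minus Arid1a by -0.20 (exact permutation p = 0.143).

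**Figure D3:**
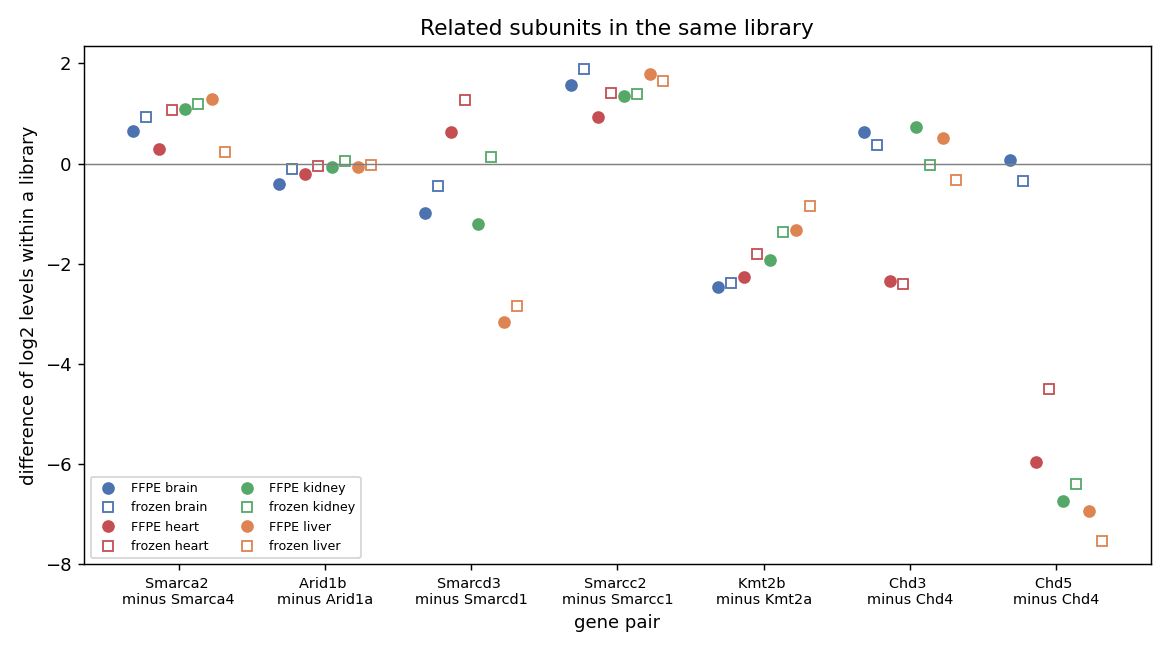
Difference of log2 levels between related subunits (y axis) in each of the 8 libraries, for 7 gene pairs (x axis). Filled circles are FFPE and open squares frozen tissue, coloured by organ. Chd5 minus Chd4 is near 0 in brain and below -4 elsewhere, Chd3 minus Chd4 is low in heart, and Smarcd3 minus Smarcd1 is lowest in liver.

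FFPE was compared with frozen tissue with the 4 organs as blocks. No member was called at an adjusted p below 0.05 in the limma fit, beside 0.00673% of all tested genes, which is Xist alone. At an unadjusted p below 0.05, 11 members were higher and 1 lower in FFPE tissue, beside 8.77% and 9.86% of all tested genes. In 13 members (29.5%) FFPE was higher than frozen tissue in 4 of 4 organs, and in 2 it was lower in 4 of 4, beside 13.7% in each direction. The median was 0.11 for the members and -0.07 over all tested genes. That median was 0.00 with scaling by total counts, where the median over all was -0.18.

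Among the KMT2 and SETD1 genes FFPE minus frozen was positive in 7 of 7, with a median of 0.46, and 6 of 7 were higher in FFPE in 4 of 4 organs. Over all tested genes 6614 of 14864 were positive, with a median of -0.07, and 13.7% were higher in 4 of 4 organs. Kmt2d averaged 7.29 ± 0.11 in FFPE and 6.56 ± 0.18 in frozen tissue (SD, n = 4 organs each). FFPE minus frozen was 0.60 in kidney, 0.71 in heart, 0.74 in liver and 0.89 in brain, and the counting intervals of all 4 lay above 0. The difference was 0.74 ± 0.11 (1.67-fold) with an adjusted p of 0.0572. Kmt2a averaged 6.62 ± 0.52 in FFPE and 5.90 ± 0.56 in frozen tissue, and the difference was 0.72 ± 0.11 with an adjusted p of 0.0578. Both passed the threshold in 3 other settings. With 2 counts added, adjusted p was 0.0378 for Kmt2d and 0.043 for Kmt2a. It was 0.0283 and 0.0277 with library quality weights, and 0.00995 and 0.014 with voom weights. Neither was called under any other setting, and with both heart libraries left out adjusted p was 0.149 for each.

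Kmt2c, which like Kmt2d acts mainly at enhancers, averaged 6.50 ± 0.15 in FFPE and 6.04 ± 0.22 in frozen tissue. The 2 groups did not overlap, and the adjusted p was 0.144. Setd1b averaged 4.65 ± 0.37 in FFPE and 4.07 ± 0.21 in frozen tissue (adjusted p 0.133). The adjusted p was 0.231 for Setd1a, 0.29 for Kmt2b and 0.524 for Kmt2e. Kmt2e was 0.04 lower in FFPE than in frozen heart and higher in the other 3 organs. Outside this group, FFPE was also higher in 4 of 4 organs for Chd6 (0.48 ± 0.13), Setd5 (0.47 ± 0.12), Setd7 (0.46 ± 0.15), Smarcal1 (0.45 ± 0.19), Chd9 (0.34 ± 0.12), Chd7 (0.31 ± 0.15) and Chd8 (0.25 ± 0.11), with adjusted p-values of 0.136 to 0.302. None of the 9 members that encode BAF ATPases and core subunits, and none of the 9 ARID genes, was higher in FFPE in 4 of 4 organs. Smarca1 and Chd4 were lower in 4 of 4, at -1.09 ± 0.44 and -0.19 ± 0.11. The part of the sex difference between FFPE and frozen tissue in these values was not tested.

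**Figure D4:**
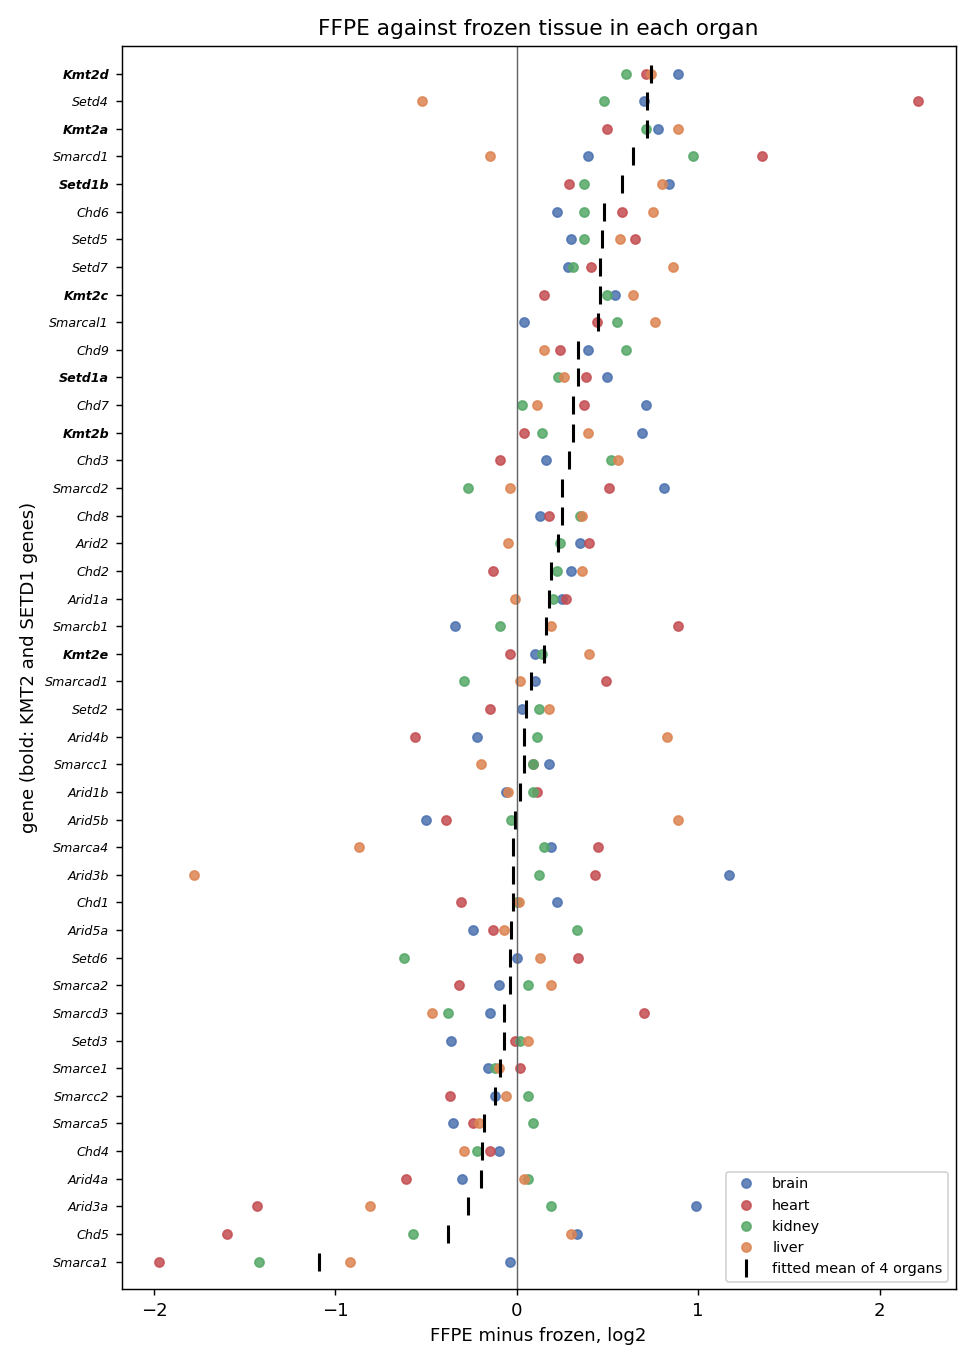
FFPE minus frozen log2 level (x axis) for each of the 44 tested members (y axis), ordered by the fitted mean of the 4 organs (black bar). Each dot is 1 organ, and the KMT2 and SETD1 genes are in bold. Kmt2d and Kmt2a sit near the top with all 4 organs to the right of 0, and Smarca1 is at the bottom with all 4 to the left.

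Partners and neighbours of these proteins were read from 5 lists, with all genes tested. Their calls come from the main fit only and were not checked under other settings. Of 18 other BAF subunit genes, brain had 8 higher and 1 lower, while liver had 0 higher and 5 lower. In brain these were 44.4% and 5.56% of the list, beside 30.2% and 26.4% of all tested genes, and in liver the lower calls (27.8%) were at the share of all genes (27.2%). The brain genes included some of the subunits known from neuronal BAF. Actl6b (BAF53b) had 141 and 181 counts in FFPE and frozen brain, against those in heart (0 and 15) and kidney (0 and 4) and 0 in both liver libraries (adjusted p 0.00255). Dpf1 (BAF45b) had 147 and 211 counts in FFPE and frozen brain, against those in heart (0 and 9) and kidney (0 and 10) and 0 in both liver libraries. It passed the filter on low values through the brain libraries only, so its p is not given, and Actl6b passed through brain and frozen heart. Ss18l1 (CREST) was 2.17 ± 0.33 higher in brain, and Bcl11a and Bcl11b were 4.96 ± 0.59 and 4.60 ± 0.55 higher. Bcl11a, like Actl6b, passed the filter through brain and frozen heart only, and the 8 higher calls in brain include Dpf1. Actl6a, the form replaced by Actl6b in neurons, was the 1 subunit gene lower in brain (-1.10 ± 0.29, adjusted p 0.0101). Dpf3 (BAF45c), known from heart muscle, was 1.23 ± 0.40 higher in heart (adjusted p 0.0416). Its level was 2.66 and 1.53 in FFPE and frozen heart, beside 1.69 and 1.65 in brain. Dpf3 was not called in brain (0.67, adjusted p 0.182), nor were Phf10 (0.08, adjusted p 0.765) and Ss18 (-0.58, adjusted p 0.0697).

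Of 15 COMPASS partner genes, brain had 6 higher and 0 lower, while liver had 0 higher and 4 lower. The higher calls in brain were 40.0% of the list, beside 30.2% of all tested genes, and the lower calls in liver 26.7%, beside 27.2%. Psip1 (LEDGF), which tethers the Kmt2a complex to chromatin, was 2.13 ± 0.23 higher in brain (adjusted p 0.000106) and -1.18 ± 0.23 in liver (adjusted p 0.00337), the same directions as Kmt2a. Heart and kidney had 1 call each, both lower: Men1 (menin) in heart (-1.16 ± 0.27) and Psip1 in kidney (-0.86 ± 0.23). Of 24 other histone methyltransferase genes, 7 were higher and 5 lower in brain, with 3 and 4 in heart, 2 and 3 in kidney, then 3 and 5 in liver. In brain these were 29.2% and 20.8% of the list, beside 30.2% and 26.4% of all tested genes. In the other organs too each share was below that of all tested genes. The 3 higher calls in heart include Smyd1. Smyd1, the muscle methyltransferase, was at 6.17 and 5.92 in FFPE and frozen heart, against -1.20 to -0.42 elsewhere, and passed the filter through heart only. Smyd2 was 1.40 ± 0.21 higher in heart. Setdb2 was 2.58 ± 0.28 higher in liver (adjusted p 0.000116), where Ezh1, a catalytic subunit of Polycomb complex PRC2, was -1.65 ± 0.17 (adjusted p 9.79e-05).

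Of 17 demethylase genes, 4 were higher and 3 lower in brain, with 0 and 1 in heart, 1 and 0 in kidney, then 2 and 3 in liver. In brain these were 23.5% and 17.6% of the list, beside 30.2% and 26.4% of all tested genes. The shares in the other organs were also below those of all tested genes. The FFPE difference was positive in 16 of 17, with a median of 0.17, beside 6614 of 14864 and -0.07 over all tested genes. Among the demethylase genes Kdm5c was 0.59 ± 0.13 (adjusted p 0.103). In the other lists Kdm6a was 0.70 ± 0.18 (adjusted p 0.135) and Dot1l 0.73 ± 0.15 (adjusted p 0.0879), so none of these was called. Those lists were more evenly split. FFPE minus frozen was positive in 8 of 15 COMPASS partners (median 0.02) and 17 of 24 other histone methyltransferases (0.16). It was positive in 8 of 18 other BAF subunits (-0.05) and 17 of 29 genes of the CHD, ISWI and INO80 list (0.10). The part of the sex difference between FFPE and frozen tissue in these values was not tested. Of 29 partners of the CHD and ISWI remodelers and genes of the INO80 family, 6 were higher and 7 lower in brain, with 3 and 0 in heart, 2 and 0 in kidney, then 4 and 5 in liver. The brain calls were 20.7% and 24.1% of the list, beside 30.2% and 26.4% of all tested genes, and the other shares were below the background too. Baz1a (ACF1), a partner of Smarca5, was -2.47 ± 0.27 in brain (adjusted p 9.4e-05) and 1.31 ± 0.27 in liver (adjusted p 0.00371). Rsf1, another Smarca5 partner, ran the opposite way, at 0.83 ± 0.14 in brain (adjusted p 0.000984) and -0.69 ± 0.14 in liver (adjusted p 0.00339).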

How the data were processed

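The samples were mouse tissue RNA assayed by m6A immunoprecipitation and sequencing. The labels' protocols name the shearing, the antibodies and the library kit. Per the submitters' processing notes, reads went through HISAT2, featureCounts and limma against mm10, with versions, order and settings not given in the sources used here. The deposited table held log2 values that the authors had normalized: from the values, log2 of CPM of a scaled library size with 0.5 added. Turned back, 100% of the values were whole counts within 0.001 (relative to 10000 for larger counts). A further 8 columns named for another mark were not used.

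The limma fit (lmFit and eBayes with a trend) had organ and preservation terms, 8 libraries and 3 residual degrees of freedom, and covered 14864 genes with log2 above 0 in at least 2 libraries. Organs were compared with the mean of the other 3. Intervals for FFPE minus frozen within an organ are exact at 95% and cover counting error only. Promoters and coordinates came from RefSeq (GRCm38.p6), where 45 of 45 gene IDs matched. Any member could be named, and other genes only from the fixed lists. The members and lists were chosen with earlier results of these data known. The fit was tested on simulated data. Software was limma 3.58.1 under R 4.3.3, and pandas 2.3.3, numpy 2.4.6, matplotlib 3.10.9 and scipy 1.17.1 under Python 3.11.15. Alternatives were other scalings, filters, offsets and variance models, and libraries left out.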

Additional observations from a re-analysis of the deposited data

Results flagged for a closer look

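In 9 members FFPE minus frozen had opposite signs in 2 or more organs, with counting intervals that excluded 0 on both sides. Each organ has 1 library per preservation, so these differences between organs were not tested, and the intervals cover counting error only. Arid3a was 0.99 in brain and -1.43 in heart, where it had 6 counts in FFPE and 19 in frozen tissue. Arid3b was 1.17 in brain and -1.78 in liver, where it had 4 counts in FFPE and 24 in frozen tissue. Arid4b was 0.83 in liver, -0.22 in brain and -0.56 in heart. Arid5b had the same pattern, at 0.89 in liver, -0.50 in brain and -0.39 in heart. Chd1 was 0.22 in brain and -0.31 in heart. Chd5 was 0.33 in brain and -1.60 in heart, with 15 counts in FFPE and 52 in frozen heart. Frozen heart was also the library outside brain with the highest sum of neuron markers. Smarca2 was 0.19 in liver, -0.10 in brain and -0.32 in heart. Smarca4, the other ATPase of BAF, was 0.19 in brain, 0.45 in heart and -0.87 in liver, with 224 counts in FFPE and 651 in frozen liver. Smarcb1 was 0.89 in heart and -0.34 in brain.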

How the results depend on the processing

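Of the 52 calls of members in the organ comparisons, 16 held their direction and their side of the threshold under all settings tried, 8 for brain, 7 for liver, 1 for heart and 0 for kidney. Besides leaving out each library, there were 12 other settings, of which leaving out both brain libraries (FFPE against frozen only) was chosen after seeing the data. In brain 19 members were called, and 40 with scaling by total counts, 31 with scaling by counts outside the ribosomal genes and 11 without the trend. In heart 12 were called, and 7 with centring on medians and 6 without the trend. In kidney 8 were called, and 15 with quantile normalization, 4 with scaling by total counts, 17 with scaling outside the ribosomal genes and 5 without the trend. In liver 13 were called, and 34 and 36 with those 2 scalings. In FFPE against frozen tissue 0 were called, and 2 each with 2 counts added, library quality weights and voom weights. Leaving out 1 library gave 10 to 21 calls for brain, 10 to 14 for liver, 3 to 13 for heart, 2 to 8 for kidney and 0 in every case for FFPE.

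Directions turned with scaling by total counts for Chd1 in brain (0.50) and liver (-0.48), Smarcd2 in brain (0.46), Setd5 in kidney (0.08), Arid5b in liver (-0.23) and Setd6 in liver (-0.10). With scaling outside the ribosomal genes they turned for Chd1 in liver (-0.05) and Kmt2e in FFPE (-0.00). All these scalings move every gene of a library together. Leaving out 1 library gave -0.21 to 0.08 for Smarca2 minus Smarca4, positive without FFPE brain (0.08) or FFPE liver (0.02). It gave -0.32 to 0.57 for Smarcd3 minus Smarcd1, negative without frozen brain (-0.13), FFPE liver (-0.32) or frozen liver (-0.25). For Chd3 minus Chd4 it gave 0.80 to 1.42, and 0.28 without both heart libraries. The cause was not tested.

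No paired analysis was possible because the table has 1 column per group and no run number. The fit rested on 3 residual degrees of freedom. The low genes of FFPE liver rested on the fewest counts.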
